A study of Mus musculus with 6 samples.

Results

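The genes described are the immunoglobulin gene segments and constant regions of the mouse: every Ensembl gene that GENCODE release M21 types as an immunoglobulin V, D, J or C gene. They were measured by RNA sequencing of polyadenylated RNA from mouse aorta, and 264 of the 55401 genes in the count table met the rule. Of these, 218 are V genes, 19 are D genes, 14 are J genes and 13 are constant region genes. They lie in the heavy chain locus on chromosome 12, the kappa light chain locus on chromosome 6 and the lambda light chain locus on chromosome 16. The 3 IL16-/-ApoE-/- libraries, called double mutants here, came from mice without interleukin-16, a cytokine that binds CD4, and without apolipoprotein E. The 3 ApoE-/- libraries, written Apo-/- in the sample titles, came from mice that lacked only apolipoprotein E. Both groups were kept on a high-fat diet for 24 weeks, starting when they were 8 weeks old, so by the labels the diet and the Apoe genotype were shared by all libraries. The strain, the sex and whether each library came from a separate animal are not stated in the labels. The p-values below therefore rest on the spread among these 6 libraries, which may be technical.

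An antibody is made of paired heavy and light chains. In a developing B cell, 1 V, 1 J and, in the heavy chain, 1 D segment are joined by the RAG recombinase into a single exon, which is spliced to a constant region. A rearranged V gene is transcribed strongly, and the descendants of the cell inherit the same choice. The heavy chain constant gene sets the isotype: Ighm and Ighd are used first, and class switching replaces them with an Ighg, Igha or Ighe gene. Plasma cells carry far more immunoglobulin RNA than other B cells, and in atherosclerosis B cells are known from the adventitia, the fat around the vessel and nearby lymphoid tissue. In whole tissue, fewer cells of a type and less RNA per cell cannot be told apart.

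The segments on which the results turn are shown first, as germline sequences from the GENCODE M21 transcripts on assembly GRCm38. The 5 kappa J segments are compared because their use differed between libraries, and capitals mark the codons of the conserved Phe-Gly-X-Gly motif. They span chr6:70722562-70723927 on the plus strand. Igkj3, known to be nonfunctional in the mouse, has no match to the motif and therefore no capitals.
Igkj1: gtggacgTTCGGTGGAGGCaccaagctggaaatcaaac
Igkj2: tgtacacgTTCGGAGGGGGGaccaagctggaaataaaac
Igkj3: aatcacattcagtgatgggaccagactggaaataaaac
Igkj4: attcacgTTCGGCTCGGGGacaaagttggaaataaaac
Igkj5: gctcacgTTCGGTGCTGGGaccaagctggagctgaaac

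The last 120 bases of 5 V genes are shown because these genes led a library or passed the test, and capitals mark the codon of the conserved cysteine that ends the framework before the third complementarity-determining region. Igkv3-2 (chr6:70698449-70699067, plus strand) led all 3 double mutants, and Igkv10-94 (chr6:68704508-68704978, minus strand) led ApoE-/- 1. Igkv6-23 (chr6:70260409-70260955, minus strand) passed the test. Ighv1-53 (chr12:115158403-115158835, minus strand) led 2 double mutants, and Ighv1-84 (chr12:115980702-115981134, minus strand) led ApoE-/- 1. The coordinates are those of the whole annotated gene.
Igkv3-2: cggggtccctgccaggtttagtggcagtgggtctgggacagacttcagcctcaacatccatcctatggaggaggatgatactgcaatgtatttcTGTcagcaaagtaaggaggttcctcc
Igkv10-94: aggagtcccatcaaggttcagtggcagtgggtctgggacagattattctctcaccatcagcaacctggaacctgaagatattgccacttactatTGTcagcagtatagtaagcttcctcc
Igkv6-23: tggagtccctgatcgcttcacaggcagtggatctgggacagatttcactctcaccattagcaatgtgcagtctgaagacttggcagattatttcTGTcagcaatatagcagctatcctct
Ighv1-53: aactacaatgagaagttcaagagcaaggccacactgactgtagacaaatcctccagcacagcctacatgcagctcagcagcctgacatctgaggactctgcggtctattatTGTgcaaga
Ighv1-84: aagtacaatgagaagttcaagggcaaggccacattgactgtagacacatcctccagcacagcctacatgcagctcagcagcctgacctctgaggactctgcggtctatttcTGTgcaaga
The pair of Ighv1 genes shows how alike members of a family can be. In the annotated transcripts, 108 of the 218 V genes have another V gene that is at least 95% identical. Reads shared by such genes could be split by the counting, and a V gene's own count is uncertain to that extent.

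Library totals were 43340294, 47208779 and 42861980 counts in the double mutants and 65730552 to 85568269 in the ApoE-/- libraries. Il16 stood at 7.93 to 12.2 CPM (counts scaled to library size, as all CPM values here) in double mutants and 15.1 to 28.7 CPM in ApoE-/- libraries, and Apoe stood at 138, 183 and 137 CPM in double mutants against 45.0, 24.9 and 20.9 CPM in ApoE-/- libraries. Neither gene was at 0 in a group labelled as lacking it, and Apoe did not stand at like levels in the 2 groups that share its genotype by label. Both checks are limited, because the deleted part of neither gene is stated. ApoE-/- 1 stood apart from the other 5 libraries, with Xist at 474 CPM against 0.497 to 6.21 CPM and the Y-linked Ddx3y at 0.143 CPM against 70.1 to 136 CPM. Fat genes (Adipoq, Plin1, Fabp4 and Lep) summed to 4083 to 4375 CPM in the double mutants, against 4063 CPM in ApoE-/- 1 and 528 and 534 CPM in ApoE-/- 2 and 3. The 4 smooth muscle genes, which an aortic library should hold, summed to 7869 to 8924 CPM in double mutants, against 3914 CPM in ApoE-/- 1, 17071 CPM in ApoE-/- 2 and 25049 CPM in ApoE-/- 3. A panel of 8 kidney genes summed to 493 to 548 CPM in double mutants and 0.0497 to 0.430 CPM in ApoE-/- libraries, and 7 of the 8 passed the test upward. Values below are mostly given by library because of these differences, and the part of tissue makeup in them was not tested.

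Immunoglobulin RNA was more abundant on average in the double mutants, but the groups overlapped. All 264 genes together summed to 669, 275 and 588 CPM in double mutant 1, 2 and 3, against 318, 54.8 and 22.4 CPM in ApoE-/- 1, 2 and 3. The means were 511 ± 208 CPM in double mutants and 132 ± 162 CPM in ApoE-/- libraries (SD, n = 3 each), a ratio of 3.88. Double mutant 2 was below ApoE-/- 1, which held more immunoglobulin RNA than both other ApoE-/- libraries together. Set against ApoE-/- 2 and 3 alone, the ratio was 13.2. The V genes did separate the groups, at 138, 54.4 and 116 CPM in double mutants against 51.9, 5.45 and 0.746 CPM in ApoE-/- libraries. Constant genes did not, at 525, 218 and 466 CPM in double mutants against 263, 48.6 and 21.4 CPM in ApoE-/- libraries.

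Gene by gene, 207 of the 264 had a count in at least 1 library and 57 had none. Of those 207, 100 (48.3%) had counts only in double mutants, as did 6.33% of all genes with a count, and 7 (3.38%) had counts only in ApoE-/- libraries, the deeper ones, as did 16.4% of all genes with a count. A low-count filter left 73 genes for the test (57 V, 5 J and 11 constant genes, no D gene), and 191 were not tested. Of the 73, 69 had a positive log2 fold change and 4 a negative one, with a median of 3.70, against -0.05 over all genes tested. The 11 tested genes that had no ApoE-/- count had lower bounds of 31.3-fold or more, all above that median. Setting them at their bounds therefore could not change it. In 54 of the 73 (74.0%) every double mutant library was above every ApoE-/- library, as in 14.9% of all genes, and in none was it the reverse, as in 11.5% of all genes. Genes that passed the filter through the double mutants alone had to differ, so these counts describe the tested genes only.

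By edgeR's quasi-likelihood test with Benjamini-Hochberg adjustment over all genes, 2 of the 73 (2.74%) rose in double mutants, against 1.14% of all genes, and none fell, against 0.0605%. At an unadjusted p under 0.05, 42 (57.5%) were higher, against 8.87% of all genes, and none was lower, against 7.03%. Igkj1, the J segment nearest the kappa V genes, had 100, 32 and 126 counts in double mutants against 2, 0 and 1 in ApoE-/- libraries. These were 2.30, 0.672 and 2.93 CPM in double mutants and 0.0239, 0 and 0.0124 CPM in ApoE-/- libraries, with a log2 fold change of 7.07 (SE 1.01, adjusted p = 0.0373). Igkv6-23 had 75, 34 and 42 counts in double mutants and no count in any ApoE-/- library. It stood at 1.73, 0.714 and 0.977 CPM in double mutants, at least 88.9-fold higher than 3 counts over the summed ApoE-/- libraries would give (adjusted p = 0.0454). Both calls depended on the libraries used. The count was 55 of 105 tested without ApoE-/- 1, when 13.1% of all genes were called higher. It was 0 without ApoE-/- 2, without ApoE-/- 3, and without double mutant 1, 2 or 3. Neither gene passed the filter of 1 CPM in 3 libraries. Over the other alternatives, adjusted p-values ran between 1.90e-08 (DESeq2) and 0.206 for Igkj1 and between 2.54e-08 (DESeq2) and 0.268 for Igkv6-23. DESeq2 called 36 of the 73 higher, and 6.25% of all genes.

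Among the heavy chain constant genes, Ighm, which encodes the chain of IgM, was the most abundant per length in every library. It stood at 272, 115 and 200 CPM in double mutants against 178, 39.7 and 17.6 CPM in ApoE-/- libraries. The groups overlapped, and the log2 fold change of 1.32 (SE 0.83) did not pass the test (adjusted p = 0.468). Ighd, the IgD chain of naive B cells, was 8.64, 4.41 and 12.1 CPM in double mutants against 3.46, 1.43 and 0.795 CPM in ApoE-/- libraries. Those groups did not overlap (log2 fold change 2.14, SE 0.64, adjusted p = 0.198).

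The 4 IgG genes were each above all ApoE-/- libraries in every double mutant, and none passed the test. Ighg2c, the chain of the complement-fixing IgG2c, was 15.3, 6.19 and 12.6 CPM in double mutants against 1.67, 0.258 and 0 CPM in ApoE-/- libraries (log2 fold change 4.13, SE 1.42, adjusted p = 0.245). Ighg2b, for IgG2b, was 12.9, 9.76 and 49.6 CPM in double mutants against 8.85, 0.488 and 0.423 CPM in ApoE-/- libraries (adjusted p = 0.354). Its level was carried by double mutant 3, where it had 2133 counts. Ighg3, for IgG3, was 6.31, 1.99 and 3.54 CPM in double mutants against 0.251, 0 and 0.311 CPM in ApoE-/- libraries (adjusted p = 0.154).

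Ighg1, for IgG1, had 602, 61 and 71 counts in double mutants and none in the ApoE-/- libraries, where a count of 0 allows 0.0358 to 0.0430 CPM. The double mutant mean of 5.60 ± 7.16 CPM (SD, n = 3) was at least 437-fold above the limit for the summed ApoE-/- libraries, but the test was not passed (adjusted p = 0.111). Most of those counts lay in double mutant 1. Ighg1 was the only constant gene seen in every double mutant and in no ApoE-/- library. The shortest annotated transcripts of Ighg2b and Ighg2c are 86.4% identical and all other IgG pairs at most 75.5% identical, and reads from stretches that these genes share could be split between them.

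Igha, for the mucosal isotype IgA, ran differently. It was 10.8, 9.68 and 12.2 CPM in double mutants, a narrower range than that of any IgG gene. The ApoE-/- libraries stood at 14.1, 1.58 and 0 CPM, so the highest and the lowest values both lay in that group (log2 fold change 1.06, SE 1.56, adjusted p = 0.759). Ighe, for IgE, had 10 counts in double mutant 1, none in the other 2 double mutants, and 0, 3 and 0 in ApoE-/- libraries, and was not tested.

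**Figure D1:**
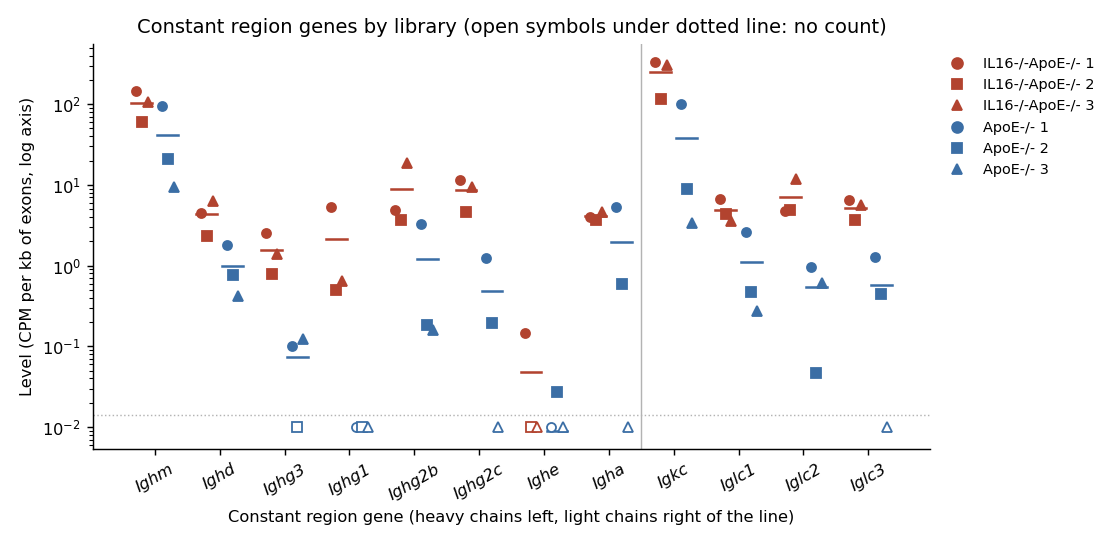
Level of each immunoglobulin constant gene in CPM per kb of exons (log axis) by library, double mutants (red) left of ApoE-/- (blue). Short bars are group means, and open symbols are libraries with no count; Iglc4, with no count anywhere, is not drawn. Ighm and Igkc lead in every double mutant, Ighg1 is open in all 3 ApoE-/- libraries, and ApoE-/- 1 is mostly the highest of its group.

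Taken as shares of the heavy chain constant counts per kb, the isotypes were distributed differently. IgM made up 81.4%, 79.7% and 72.2% in double mutants and 88.9%, 92.3% and 93.0% in ApoE-/- libraries. The means were 77.7% ± 4.91 in double mutants and 91.4% ± 2.19 in ApoE-/- libraries (SD, n = 3 each), 13.7 points lower in double mutants, and the groups did not overlap. The IgG genes together took 13.7%, 12.5% and 20.4% in double mutants against 4.40%, 1.65% and 2.81% in ApoE-/- libraries, also without overlap. Ighg2c held nearly the same share in each double mutant, 6.52%, 6.10% and 6.44%, against 1.19%, 0.854% and 0% in ApoE-/- libraries. The IgD share overlapped, at 2.56%, 3.03% and 4.31% in double mutants and 1.72%, 3.31% and 4.17% in ApoE-/- libraries, as did the IgA share, at 2.29%, 4.74% and 3.11% in double mutants and 4.97%, 2.60% and 0% in ApoE-/- libraries. No p is given for these sums over chosen genes, and 3 libraries against 3 could not go below 0.10 in a two-sided permutation test.

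Light chain RNA was mostly kappa. Igkc, the single kappa constant gene, was 175, 62.5 and 163 CPM in double mutants against 54.2, 4.72 and 1.78 CPM in ApoE-/- libraries. The groups did not overlap, but the test was not passed (log2 fold change 2.72, SE 1.24, adjusted p = 0.349). The 3 lambda constant genes with counts were also without overlap. Iglc1 was 3.00, 1.99 and 1.63 CPM in double mutants against 1.17, 0.215 and 0.124 CPM in ApoE-/- libraries (adjusted p = 0.312). Iglc2 was 2.90, 3.02 and 7.17 CPM in double mutants against 0.597, 0.0287 and 0.373 CPM in ApoE-/- libraries (adjusted p = 0.153), and Iglc3 was 2.90, 1.64 and 2.54 CPM in double mutants against 0.585, 0.201 and 0 CPM in ApoE-/- libraries (adjusted p = 0.291). Iglc2 and Iglc3 are 94.9% identical, so their split is uncertain. Iglc4 had no count.

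The kappa share of light chain constant counts per kb was 94.9%, 90.1% and 93.6% in double mutants and 95.5%, 90.2% and 79.1% in ApoE-/- libraries. The ranges overlapped, and the difference of 4.61 points was 0.03 points without ApoE-/- 3, whose share rests on 143 Igkc counts and 40 lambda counts. Light chain relative to heavy chain constant RNA separated the groups: the ratio of counts per kb was 1.96, 1.70 and 2.22 in double mutants against 1.01, 0.432 and 0.421 in ApoE-/- libraries. Heavy chain V counts per heavy chain constant count, on the per-kb scale, were 0.543, 0.467 and 0.553 in double mutants against 0.552, 0.223 and 0.0498 in ApoE-/- libraries, with ApoE-/- 1 among the double mutants and ApoE-/- 2 and 3 below them.

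**Figure D2:**
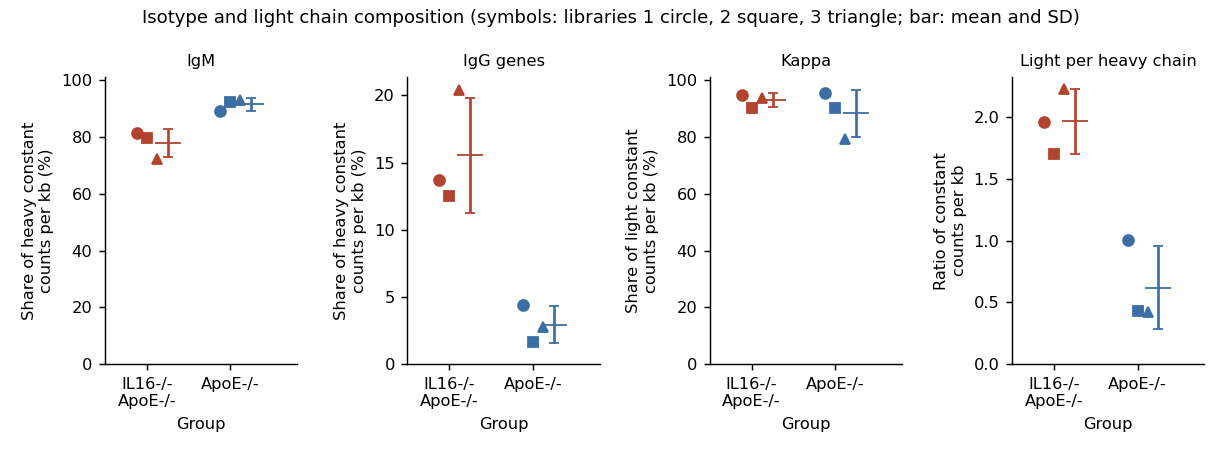
Shares of heavy chain constant counts per kb held by IgM and by the 4 IgG genes, kappa share of the light chain constant counts per kb, and ratio of light to heavy chain constant counts per kb, by library, double mutants left of ApoE-/-. Horizontal marks with bars are means with SD (n = 3); the IgM, IgG and ratio values do not overlap between groups and the kappa shares do.

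Heavy chain V counts were spread over more genes in each double mutant than in any ApoE-/- library, and for kappa this depended on the measure. Of the 113 heavy chain V genes, 63, 55 and 60 had a count in double mutants against 19, 15 and 5 in ApoE-/- libraries. Of the 102 kappa V genes, 71, 67 and 75 had a count in double mutants against 37, 25 and 3 in ApoE-/- libraries. These numbers depend on how many V counts a library holds, but the double mutants had 1528, 629 and 1268 heavy chain V counts against 1759 in ApoE-/- 1, which showed 19 genes. In all 3 double mutants, 35 heavy and 56 kappa V genes were seen, and in all 3 ApoE-/- libraries 0 heavy and 2 kappa V genes. The ApoE-/- numbers could not exceed the 5 heavy and 3 kappa V genes of ApoE-/- 3, so the 2 groups cannot be compared on this overlap.

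The effective number of V genes (the exponential of the Shannon entropy, equal to the number of genes if all were used evenly) did not overlap between groups. For the heavy chain it was 39.2, 36.1 and 32.7 in double mutants against 5.56, 8.27 and 4.78 in ApoE-/- libraries. For kappa it was 32.2, 41.6 and 23.9 in double mutants against 7.58, 17.1 and 2.10 in ApoE-/- libraries. At a common depth of 15 heavy chain V counts, the lowest of the 6 libraries, the expected number of genes seen was 12.01, 11.95 and 11.3 in double mutants against 5.28, 7.05 and 5 in ApoE-/- libraries. At 127 counts, which leaves out ApoE-/- 3, it was 42.4, 40.5 and 39.8 in double mutants against 11.9 in ApoE-/- 1 and 15 in ApoE-/- 2. For kappa at 29 counts, which takes ApoE-/- 3 whole, it was 17.7, 19.9 and 15.7 in double mutants against 9.81, 14.4 and 3.00 in ApoE-/- libraries. These expectations take counts as independent draws, which was not shown for these data, and the values of ApoE-/- 3 at 15 and 29 counts are simply all the genes it had. On the inverse Simpson index, which weights the leading genes more, kappa values overlapped, at 16.7, 28.6 and 9.18 in double mutants and 3.29, 12.4 and 1.75 in ApoE-/- libraries.

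**Figure D3:**
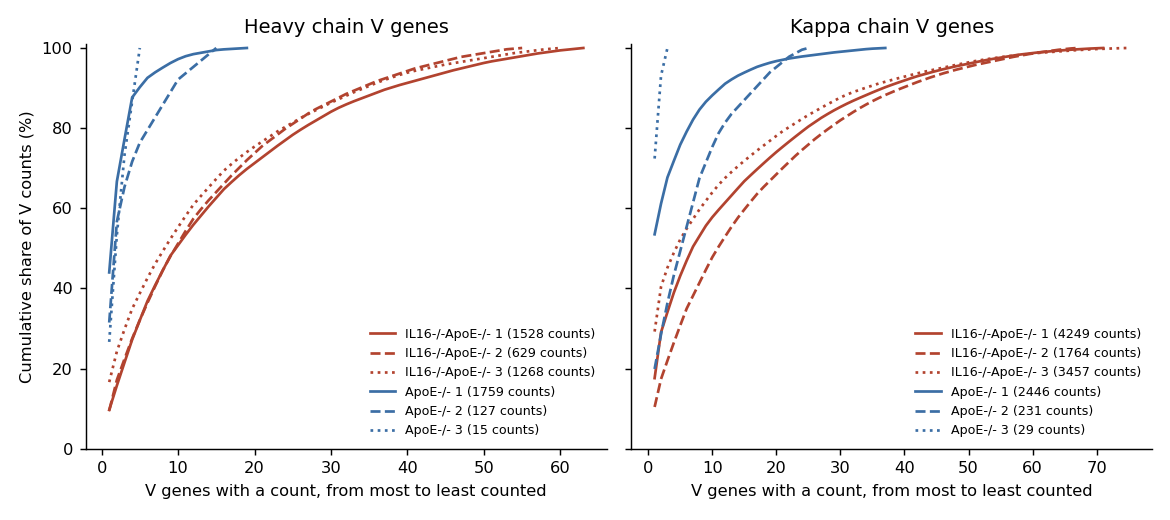
Cumulative share of heavy chain (left) and kappa (right) V counts against the number of V genes, ranked from most to least counted within each library; red lines are double mutants, blue lines ApoE-/-, and legends give the V counts. Heavy chain curves of the double mutants rise together over 55 to 63 genes, while those of ApoE-/- libraries end at 5 to 19 genes.

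The top 5 heavy chain V genes of a library held 32.1%, 32.1% and 38.8% of its V counts in double mutants against 90.2%, 76.4% and 100% in ApoE-/- libraries. The top 5 kappa V genes held 43.2%, 30.8% and 52.2% in double mutants against 75.9%, 49.4% and 100% in ApoE-/- libraries, and the leading kappa gene alone 17.6%, 10.4% and 29.2% in double mutants against 53.5%, 19.9% and 72.4% in ApoE-/- libraries. Both kappa measures overlapped, with ApoE-/- 2 below double mutant 3. In double mutants the leading heavy chain genes were Ighv1-53 in libraries 1 and 3, at 9.69% and 16.6% of V counts, and Ighv1-26 in library 2, at 9.54%. Ighv1-53 stood at 3.41, 0.567 and 4.91 CPM in double mutants against 0.239, 0 and 0 CPM in ApoE-/- libraries (log2 fold change 5.15, SE 1.64, adjusted p = 0.219). Ighv1-26 was 2.00, 1.26 and 2.26 CPM in double mutants against 0, 0.574 and 0 CPM in ApoE-/- libraries (adjusted p = 0.385). Other heavy chain genes were led by ApoE-/- 1: Ighv9-3 was 0.760, 0.546 and 1.63 CPM in double mutants against 4.76, 0.459 and 0 CPM in ApoE-/- libraries, and Ighv14-4 was 0.922, 0.672 and 0.931 CPM in double mutants against 2.18, 0.0574 and 0 CPM in ApoE-/- libraries. By family, Ighv1, the large distal family, held 56.8%, 56.3% and 57.9% of heavy chain V counts in double mutants against 65.3%, 62.2% and 46.7% in ApoE-/- libraries. Ighv6 held 5.10%, 4.45% and 5.84% in double mutants against 0.114%, 0% and 0% in ApoE-/- libraries, through Ighv6-3 and 1 other gene with counts.

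Igkv3-2 was the leading kappa V gene of every double mutant, with 17.6%, 10.4% and 29.2% of kappa V counts. It stood at 17.3, 3.86 and 23.5 CPM in double mutants against 0.871, 0.201 and 0.261 CPM in ApoE-/- libraries. Every double mutant was above every ApoE-/- library (log2 fold change 5.05, SE 0.92), but the adjusted p of 0.0696 missed the threshold. It also led ApoE-/- 3, where 21 of 29 counts were its own. Igkv1-110 was 4.12, 1.66 and 8.98 CPM in double mutants against 0.203, 0.0574 and 0 CPM in ApoE-/- libraries (adjusted p = 0.107), and Igkv6-20 was 4.93, 2.58 and 3.00 CPM in double mutants against 1.91, 0 and 0 CPM in ApoE-/- libraries (adjusted p = 0.530). Igkv4-59 was high in 1 double mutant, at 11.2, 0.567 and 0.954 CPM in double mutants against 1.21, 0 and 0 CPM in ApoE-/- libraries, and the groups overlapped.

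The concentration in ApoE-/- 1 lay in a few genes. Ighv1-84 had 35, 0 and 4 counts in double mutants against 774, 0 and 0 in ApoE-/- libraries, and made up 44.0% (Wilson 95% interval 41.7 to 46.3) of the 1759 heavy chain V counts of ApoE-/- 1. It did not pass the filter. Igkv10-94 had 39, 4 and 14 counts in double mutants against 1309, 4 and 0 in ApoE-/- libraries, and made up 53.5% (51.5 to 55.5) of the 2446 kappa V counts of ApoE-/- 1. Its log2 fold change of -3.58 (SE 2.33, adjusted p = 0.481) turned to 3.87 without ApoE-/- 1. The genes most like them had few counts: Igkv10-95, 97.1% identical to Igkv10-94, had 2 in all, and Ighv1-75, 96.3% identical to Ighv1-84, had 17. In ApoE-/- 2, Ighv1-26 led the heavy chain with 40 of 127 counts and Igkv4-91 the kappa chain with 46 of 231. The gene at rank 1 was thus not shared among the ApoE-/- libraries, but lower ranks were partly shared. Ighv9-3 held rank 2 in ApoE-/- 1 and 2, with 22.7% and 25.2% of heavy chain V counts. Its share was 2.16%, 4.13% and 5.52% in double mutants. Igkv5-39 held rank 2 of the kappa V genes in ApoE-/- 1 and 3.

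Of the 207 genes with a count, 32 (15.5%) had one in every double mutant and in no ApoE-/- library, against 0.696% of all genes with a count: Ighg1, 13 heavy chain V genes and 18 kappa V genes. None had the reverse pattern, against 1.59%, but that pattern needs a count in ApoE-/- 3, where only 25 immunoglobulin genes had one. Among the 32, besides Igkv6-23, Igkv17-127 came nearest the threshold, with 24, 55 and 34 counts in double mutants (adjusted p = 0.0528). Ighv6-3 followed, with 38, 22 and 35 counts (adjusted p = 0.0577). For V use, Spearman's rho across the 102 kappa V genes was 0.70, 0.71 and 0.71 for the 3 pairs of double mutants and, across the 113 heavy chain V genes, 0.60, 0.50 and 0.53. Between the groups, ApoE-/- 1 correlated with the double mutants at 0.53, 0.50 and 0.50 for kappa and 0.37, 0.30 and 0.38 for the heavy chain, and ApoE-/- 2 at 0.41, 0.36 and 0.38 for kappa and 0.37, 0.44 and 0.29 for the heavy chain. ApoE-/- 1 and 2 correlated with each other at 0.49 for kappa and 0.18 for the heavy chain. On each chain, all of these values that involve an ApoE-/- library lay below those among the double mutants. These coefficients are across genes, describe pairs of libraries only, and were computed from far fewer V counts in ApoE-/- 2 than in the other libraries compared.

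Along the kappa locus, V genes lie between 18.4 and 3166 kb from Igkj1. The 51 V genes nearest the J segments held 68.2%, 54.7% and 61.1% of kappa V counts in double mutants. In ApoE-/- libraries they held 33.6%, 36.4% and 100%, of which the last rests on 29 counts. Single genes weigh on these shares. Igkv10-94, which lies outside those 51, held 53.5% of the kappa V counts of ApoE-/- 1. Igkv3-2, which is among them, held 17.6%, 10.4% and 29.2% in double mutants. A shift along the locus as a whole was not tested. The nearest 57 of the 113 heavy chain V genes held 48.0%, 44.4% and 39.4% of heavy chain V counts in double mutants and 36.6%, 37.8% and 40.0% in ApoE-/- libraries, which overlapped.

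**Figure D4:**
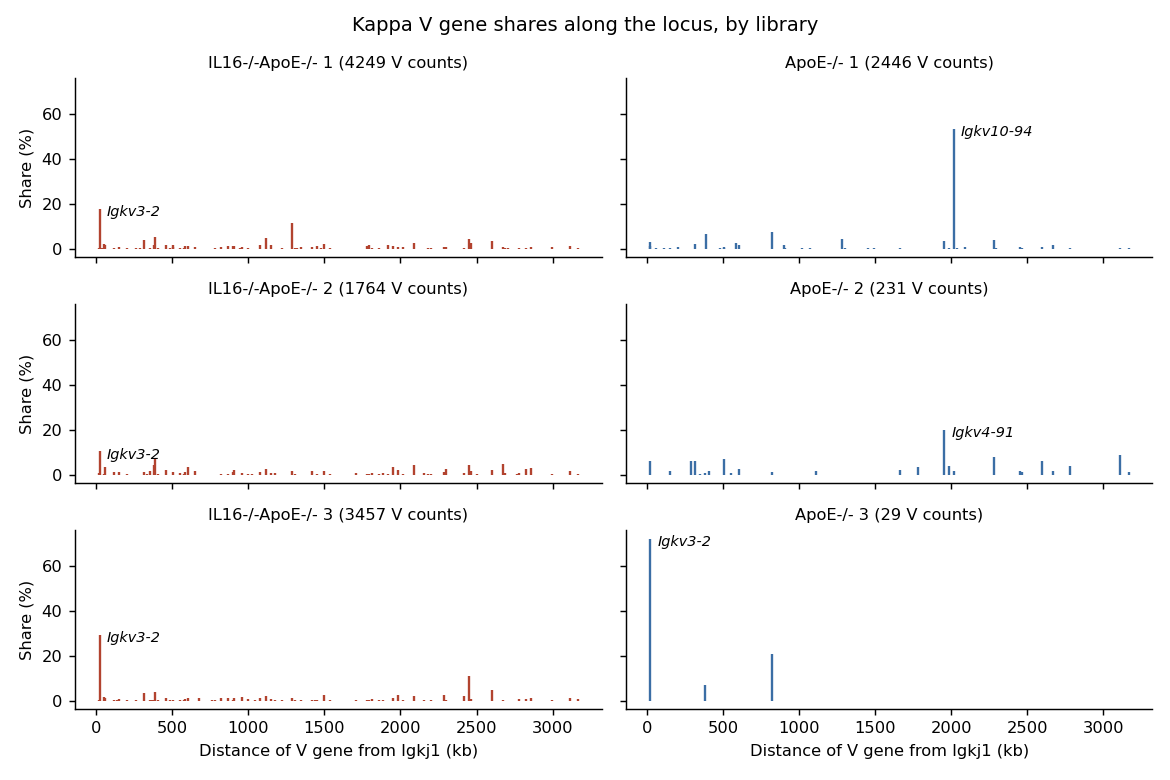
Share of kappa V counts held by each V gene against its distance from Igkj1 in kb, 1 panel per library, double mutants on the left and ApoE-/- on the right; the leading gene of each library is named. Igkv3-2, close to the J segments, leads at 10.4% to 29.2% over a broad field in double mutants, while Igkv10-94 holds 53.5% in ApoE-/- 1.

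The lambda locus has 3 V genes. Iglv1 was 3.76, 3.48 and 4.21 CPM in double mutants against 1.56, 0.258 and 0.0621 CPM in ApoE-/- libraries (log2 fold change 2.60, SE 1.04, adjusted p = 0.301). It took 84.5%, 83.4% and 71.0% of lambda V counts in double mutants and 92.3%, 81.8% and 31.2% in ApoE-/- libraries, the last of only 16 counts. Iglv3 was 0.253, 0.651 and 0.675 CPM in double mutants against 0.131, 0 and 0 CPM in ApoE-/- libraries (adjusted p = 0.323). Iglv2 was 0.438, 0.0420 and 1.05 CPM in double mutants against 0, 0.0574 and 0.137 CPM in ApoE-/- libraries, overlapped, and was not tested.

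J segments are too short to gather many reads, but the kappa J segments differed in proportion. Per kb, Igkj1 held 64.1%, 57.2% and 80.1% of the kappa J counts in double mutants against 1.56%, 0% and 18.1% in ApoE-/- libraries. Igkj5, at the far end of the cluster, held 2.32%, 4.85% and 1.15% in double mutants against 80.5%, 17.1% and 0% in ApoE-/- libraries. The high value comes from 114 Igkj5 counts in ApoE-/- 1, out of 140 kappa J counts there, the same library in which Igkv10-94 predominates, while ApoE-/- 2 and 3 had 11 and 6 kappa J counts in all. Igkj3, whose sequence lacks the motif, had 2, 0 and 3 counts in double mutants and 2, 2 and 0 in ApoE-/- libraries, no more than 3 in any library.

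**Figure D5:**
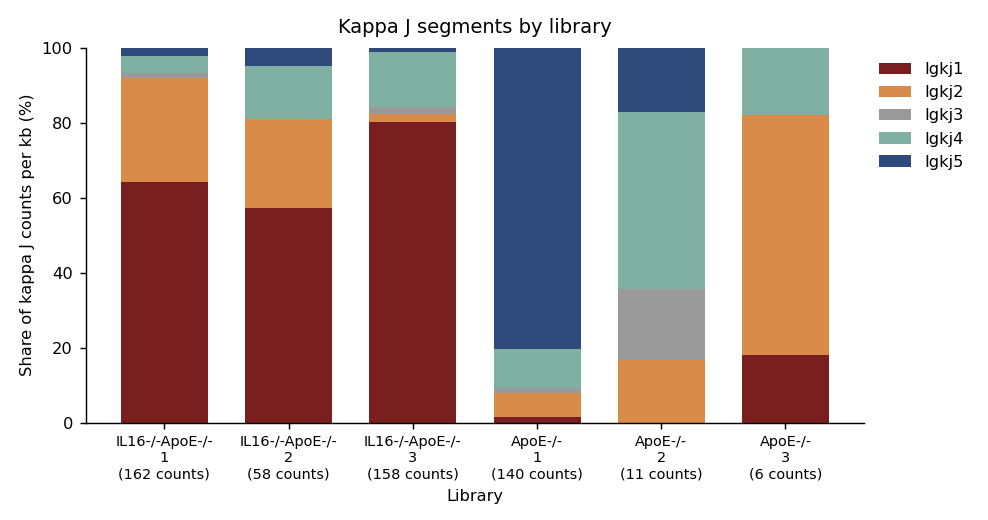
Share of kappa J counts per kb held by each of the 5 J segments in each library, double mutants on the left and ApoE-/- on the right, with the number of kappa J counts under each bar. Igkj1 makes up 57.2% to 80.1% in double mutants, and Igkj5 makes up 80.5% in ApoE-/- 1; the bars of ApoE-/- 2 and 3 rest on 11 and 6 counts.

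All 4 heavy chain J segments were tested and none passed. Ighj2 had 25, 23 and 29 counts in double mutants against 16, 4 and 0 in ApoE-/- libraries (log2 fold change 2.76, SE 1.19, adjusted p = 0.326). Ighj1 had 17, 14 and 19 counts in double mutants against 63, 11 and 3 in ApoE-/- libraries (log2 fold change 0.25, SE 1.04, adjusted p = 0.925). Its share of heavy chain J counts per kb was lower in double mutants, 17.4%, 28.0% and 25.0%, than in ApoE-/- libraries, 58.4%, 37.4% and 33.3%. Heavy chain J counts were 107, 60 and 89 in double mutants and 114, 31 and 9 in ApoE-/- libraries. The 33.3% of ApoE-/- 3 thus rests on 3 of 9 counts, too few to place it apart from the double mutants. The 19 D genes, which are shorter still, had 1 to 2 counts per double mutant and 0 to 3 per ApoE-/- library.

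Some V genes are known from B-1 cells, the innate-like B cells whose natural antibodies bind phospholipids; these genes were chosen by that role after their values had been seen. Ighv11-2 and Igkv14-126, which pair in antibodies to phosphatidylcholine, had 21, 20 and 16 and 6, 47 and 29 counts in double mutants and none in any ApoE-/- library. Ighv11-2 was at least 33.2-fold higher on that basis (adjusted p = 0.0800), and Igkv14-126 did not pass the filter. Of the other such pair, Ighv12-3 had 0, 0 and 5 counts in double mutants and none in ApoE-/- libraries, and Igkv4-91 had 53, 57 and 49 counts in double mutants against 80, 46 and 0 in ApoE-/- libraries. Ighv7-1 and Igkv7-33, which form the T15 antibody to phosphorylcholine on oxidised lipoproteins, had no count in any of the 6 libraries, which allows 0.0630 to 0.0698 CPM in a double mutant and 0.0358 to 0.0430 CPM in an ApoE-/- library.

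The genes that make, carry and read antibodies were set beside them. Of 15 B cell genes, none passed the test, 14 had a positive log2 fold change with a median of 1.73, and 9 were higher in every double mutant than in any ApoE-/- library. Their summed level was 160, 184 and 180 CPM in double mutants against 145, 73.8 and 13.2 CPM in ApoE-/- libraries, mostly from Cd72, Cd37 and Cd22. Cd79a, a signalling chain of the B cell receptor, was 6.41, 3.25 and 8.03 CPM in double mutants against 1.599, 1.205 and 0.659 CPM in ApoE-/- libraries (log2 fold change 2.35, SE 0.50, adjusted p = 0.102). Relative to Cd79a, Ighm was 42.5, 35.4 and 25.0 times as abundant in CPM in double mutants, against 111, 32.9 and 26.7 in ApoE-/- libraries, so that ApoE-/- 1 held the most Ighm per Cd79a. Igkc per Cd79a was 27.4, 19.2 and 20.3 in double mutants against 33.9, 3.92 and 2.70 in ApoE-/- libraries. Both ratios depend on the B cell gene used as divisor. Cd79b was 4.22, 4.03 and 7.28 CPM in double mutants against 5.25, 1.32 and 0.621 CPM in ApoE-/- libraries. Unlike Cd79a, it was higher in ApoE-/- 1 than in double mutants 1 and 2.

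Of 15 plasma cell and secretion genes, none passed, 11 had a positive log2 fold change with a median of 0.44, and the sums overlapped, at 650, 659 and 640 CPM in double mutants and 615, 653 and 537 CPM in ApoE-/- libraries. Many of them, such as Xbp1 and Txndc5, serve secretion in other cells too. Jchain, which joins IgM and IgA into polymers, was 33.8, 11.5 and 24.6 CPM in double mutants against 11.6, 1.06 and 0.149 CPM in ApoE-/- libraries and overlapped narrowly (adjusted p = 0.413). Pou2af1, a B cell coactivator of immunoglobulin transcription, was 5.62, 1.70 and 3.79 CPM in double mutants against 1.01, 0.832 and 0 CPM in ApoE-/- libraries (adjusted p = 0.385). Fkbp11, a chaperone of secretory cells, was 2.70, 4.18 and 3.03 CPM in double mutants against 1.36, 1.15 and 1.94 CPM in ApoE-/- libraries (adjusted p = 0.220). The 4 with a negative log2 fold change were Derl3 (-1.57), a gene of protein disposal in the endoplasmic reticulum, the transcription factor Irf4 (-1.09), Tnfrsf17 (-0.44), the plasma cell receptor BCMA, and Txndc5 (-0.23). Irf4 was 7.30, 8.17 and 5.45 CPM in double mutants against 37.8, 5.42 and 1.38 CPM in ApoE-/- libraries. Both its highest and its lowest level thus lay in the ApoE-/- group, the highest in ApoE-/- 1.

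Genes of rearrangement and switching were low, and none of the 5 tested passed. Rag1, the catalytic subunit of the recombinase, was 2.40, 1.91 and 2.82 CPM in double mutants against 0, 0.316 and 0.0497 CPM in ApoE-/- libraries (log2 fold change 4.29, SE 1.24, adjusted p = 0.181). Rag2, its partner, had 12, 6 and 16 counts in double mutants and none in ApoE-/- libraries, and was not tested. Dntt, which adds bases at the junctions, was 0.922, 0.756 and 1.79 CPM in double mutants against 0.0477, 0.287 and 0 CPM in ApoE-/- libraries (adjusted p = 0.283). Vpreb2, of the surrogate light chain, had no count in any library. No germinal centre gene passed of 5 tested: Bcl6, a factor of that reaction which other cells also use, was 78.9, 56.8 and 83.0 CPM in double mutants against 37.8, 59.9 and 74.7 CPM in ApoE-/- libraries. Mef2b, a regulator of Bcl6, was 0.276, 0.231 and 0.209 CPM in double mutants against 0.179, 0.359 and 0.621 CPM in ApoE-/- libraries.

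Of the Fc receptors and transporters, none of 10 tested passed. Of these, 9 had a positive log2 fold change, with a median of 0.66. In 3, every double mutant was above every ApoE-/- library. The IgG receptor genes Fcgr1, Fcgr2b, Fcgr3 and Fcgr4 and the transporter Fcgrt overlapped between groups, and Trim21 had a log2 fold change of -0.08. Pigr, which carries polymeric IgA and IgM across epithelia, was 3.32, 1.49 and 2.33 CPM in double mutants against 0.561, 0.545 and 0.0497 CPM in ApoE-/- libraries (adjusted p = 0.231), and Fcer2a, the low-affinity IgE receptor CD23, was 1.11, 1.07 and 3.93 CPM in double mutants against 0.967, 0.244 and 0.137 CPM in ApoE-/- libraries (adjusted p = 0.323). Of the B cell survival and chemotaxis genes, none of 9 tested passed and Il21 had no count. Of the 9, 6 had a positive log2 fold change, with a median of 0.52. The negative ones were Cxcl13 (-1.89), Tnfsf13b (-0.48) and Tnfrsf17 (-0.44). Tnfrsf13c, the BAFF receptor, was 1.27, 0.189 and 2.19 CPM in double mutants against 0.0716, 0.373 and 0 CPM in ApoE-/- libraries (adjusted p = 0.371), and Il6, a plasma cell growth factor, was 4.29, 3.63 and 5.07 CPM in double mutants against 3.13, 1.74 and 1.68 CPM in ApoE-/- libraries (adjusted p = 0.274). Cxcl13, the chemokine that draws B cells into follicles, was 5.64, 13.4 and 8.70 CPM in double mutants against 97.1, 5.26 and 0.149 CPM in ApoE-/- libraries, with the highest level in ApoE-/- 1.

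Markers of tissues that can carry B cells with an aorta were also read. T cell genes, none of 10 past the test, summed to 50.3, 45.0 and 50.1 CPM in double mutants and 60.8, 36.0 and 4.03 CPM in ApoE-/- libraries, and 7 had a positive log2 fold change with a median of 0.31. Within that list, Cd4, the receptor through which interleukin-16 signals, was 15.4, 19.4 and 11.8 CPM in double mutants against 9.52, 6.88 and 1.45 CPM in ApoE-/- libraries (adjusted p = 0.350), and the T and NK adhesion gene Cd2 was 4.72, 3.27 and 5.07 CPM in double mutants against 4.83, 2.19 and 0.410 CPM in ApoE-/- libraries. Cd3e (-0.28), of the CD3 complex, and the CD8 genes Cd8a (-0.10) and Cd8b1 (-0.34) had negative log2 fold changes. Lymph node stroma genes, none of 6 past the test, summed to 65.7, 75.9 and 65.6 CPM in double mutants and 108, 40.9 and 26.7 CPM in ApoE-/- libraries. The 2 of the 6 with the smallest p were also the only 2 whose groups did not overlap: Glycam1, a mucin of high endothelial venules, was 1.50, 3.00 and 2.68 CPM in double mutants against 0.573, 0.301 and 0.199 CPM in ApoE-/- libraries (adjusted p = 0.0901), and the chemokine Ccl19 was 3.99, 4.39 and 7.61 CPM in double mutants against 1.67, 0.832 and 0.547 CPM in ApoE-/- libraries (adjusted p = 0.110). Ccl21a, Prox1 and Chst4 overlapped, as did Lyve1 of lymphatic vessels, at 27.5, 31.9 and 25.3 CPM in double mutants against 67.7, 34.9 and 20.1 CPM in ApoE-/- libraries (log2 fold change -0.53). Macrophage genes, none of 5 past the test, summed to 4139, 5896 and 4416 CPM in double mutants and 4210, 2106 and 329 CPM in ApoE-/- libraries. Of the 5, 4 had a positive log2 fold change, with a median of 1.16, and 2 did not overlap between groups. Tyrobp, a signalling adaptor of myeloid cells and 1 of those 2, was 129, 162 and 139.5 CPM in double mutants and 71.0, 23.0 and 6.06 CPM in ApoE-/- libraries. Csf1r (log2 fold change -0.002) and Adgre1 (0.14) were both highest in ApoE-/- 1.

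Among smooth muscle genes none of 4 passed, with Myh11 at 2328, 2031 and 2345 CPM in double mutants and 1158, 6355 and 8497 CPM in ApoE-/- libraries. Of the fat genes 1 of 4 rose: Lep, the adipocyte hormone leptin, was 22.0, 18.7 and 19.3 CPM in double mutants against 0.871, 1.09 and 2.05 CPM in ApoE-/- libraries (log2 fold change 3.90, SE 0.38, adjusted p = 0.0168). The kidney genes moved with the group in every library: Kap, a protein of the proximal tubule, was 357, 349 and 389 CPM in double mutants, and Acsm2, Umod and Miox were 39.9, 37.4 and 40.3, 32.3, 31.6 and 29.8, and 19.7, 18.0 and 19.3 CPM there, while none of these 4 had a count in the ApoE-/- libraries (adjusted p = 0.00397 for Kap, Acsm2 and Umod and 0.00629 for Miox). Within the double mutants the kidney sum had a highest value 1.11 times its lowest, and the immunoglobulin sum one of 2.43 times. With any 1 double mutant left out, no gene in the table passed, these included. The part of fat, kidney or lymphoid tissue in the immunoglobulin values was not tested.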

How the data were processed

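Polyadenylated RNA from 6 mouse aorta samples was sequenced from strand-marking libraries, per the labels' protocols. The authors deposited 1 table of raw counts per gene for the 6 samples, with no normalization, as judged from whole numbers and unequal totals. Cutadapt, HISAT2 and StringTie are named in the submitters' processing notes. For the genome build, annotation, counting program and strand setting, nothing is given in the sources used here, so reads shared with V gene copies, antisense or overlapping genes may be split or merged. Symbols, biotypes, exon lengths and positions came from GENCODE M21, which matched 55141 of 55401 gene IDs.

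Groups and replicate numbers came from the sample titles. The members and lists were chosen with earlier results of these data known. The filterByExpr function of edgeR (count of at least 10, total of at least 15) kept 19833 genes, which were scaled by TMM. The main test was edgeR's two-sided quasi-likelihood test, robust and without covariates. Its p-values were adjusted by Benjamini and Hochberg's method over all genes kept, with 0.05 as the threshold. CPM values are counts scaled to TMM-adjusted library size, and levels of different genes are compared per kb of exons. Fold changes are double mutant over ApoE-/-. The SE is the log2 fold change divided by the square root of the test's F. A count of 0 allows up to 3 counts. Shares, sums and effective numbers have no test. Wilson intervals (95%), floors and bounds cover counting error only. In every library more genes were listed at 4 counts than at 3 or at 5 (in ApoE-/- 1, 989 against 470 and 331), so counts may not be single independent fragments.

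Named by rule are constant genes with at least 10 counts, the 5 heavy, 5 kappa and 3 lambda V genes with the highest mean CPM, members past the threshold, and from each list up to 4 genes past it or, with none, the 2 with the smallest p. Other genes named (J segments, leading V genes of single libraries, V genes of known role, genes near the threshold, other list genes) were chosen after their values were seen. A few list genes are not reported here by name. Alternatives were RLE factors, library totals, no filter, 1 CPM in 3 libraries, DESeq2, limma-voom, a replicate block, leaving out each library, undivided counts, other diversity measures and common depths. Tools were R 4.3.3, edgeR 4.0.16, limma 3.58.1, DESeq2 1.42.0, Python 3.11.15 and matplotlib 3.10.9.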

Additional observations from a re-analysis of the deposited data

How the results depend on the processing

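The number of immunoglobulin genes called higher, 2 of 73, was 4 of 207 with no filter, 0 of 18 with at least 1 CPM in 3 libraries, 36 with DESeq2, 7 with limma-voom and 0 to 55 with 1 library left out. None was called lower under any alternative. Over all genes 238 were called, against 1697 with DESeq2, 409 with limma-voom and 0 to 5231 with 1 library left out. ApoE-/- 1 gave the highest value of both ranges; leaving out a double mutant gave 0 in all 3 cases. Deviations of same-numbered libraries from their group means had correlations of -0.04, -0.03 and -0.01. With 3 libraries per group, these values cannot decide whether the numbers pair libraries. With a replicate block 0 immunoglobulin genes and 0 genes in all were called. The cause of these changes was not tested.

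The log2 ratio of the summed immunoglobulin level, 1.96, ran between 1.45 and 3.73 with 1 library left out, highest without ApoE-/- 1. That of the effective number of heavy chain V genes was 2.54. For another measure, the expected number of genes seen at a common depth, it was 1.03 at 15 V counts per library and 1.61 at 127, the second depth chosen after seeing the data. The differences in IgM share (-15.5 to -10.9 points with 1 library left out) and in kappa V genes (log2 ratio 0.97 to 2.75 over all alternatives, the expected numbers of genes seen included) kept their direction. The log2 fold change of Ighv9-3 (-0.83) turned to 1.86 with limma-voom and 0.66 with the replicate block and ran between -1.42 and 2.09 with 1 library left out. That of Igkv10-94 (-3.58) turned to 0.58 with limma-voom and ran between -4.67 and 3.87. Both were highest without ApoE-/- 1. That of Ighv14-4 (0.17) ran between -0.42 and 4.82, and was negative without ApoE-/- 2 (-0.38) or 3. Of these 3, Ighv14-4 alone passed the test under an alternative, without ApoE-/- 1. Over 13 settings, 545 values of the 49 named genes kept direction and side of the threshold, 40 passed it newly, mostly without ApoE-/- 1 or with DESeq2, and 34, of 7 genes, no longer passed. Depth limits the shares of ApoE-/- 3, with 15 heavy and 29 kappa V counts.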

Other observations

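Reads were also listed for V pseudogenes, which are not immunoglobulin genes by the rule. Of 158 such genes, 9 had counts, at 16, 0 and 13 in double mutants and 15, 0 and 5 in ApoE-/- libraries. The 7 immunoglobulin genes seen only in ApoE-/- libraries had 10 counts or fewer each, led by Igkv4-78 with 5, 5 and 0.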
